A study of Rattus norvegicus with 12 samples.

Results

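Growing cardiomyocytes release signalling proteins that act on the secreting cell itself, on neighbouring fibroblasts and on distant organs. The mRNAs of 10 such factors were followed here in cultured rat heart muscle cells: Hbegf, Nrg1, Lif, Il6, Edn1, Inhba, Mstn, Igf1, Gdf15 and Fgf21. The members were chosen by symbol, and all 10 were present among the 18469 genes of the deposited count and FPKM tables.

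The cells were neonatal rat ventricular myocytes (NRVMs), prepared from the hearts of newborn Sprague-Dawley rats. They were separated from fibroblasts on a Percoll gradient and, by the paper's methods, first cultured in medium with serum. Before treatment they were moved to medium without serum that held insulin, transferrin and selenium. Each of 4 groups had 3 libraries of total RNA: negative control siRNA (siNeg), siNeg with phenylephrine (siNeg.PE), siRNA against Slc25a26 (siSlc25a26), and that siRNA with phenylephrine (siSlc25a26.PE). Phenylephrine (PE), an agonist of α1-adrenergic receptors that makes cardiomyocytes grow, was added 12 h after transfection for 36 h, and all 4 groups had been transfected with siRNA. Slc25a26 encodes the carrier that brings S-adenosylmethionine into mitochondria. The sex of the animals, the number of hearts behind each culture and the siRNA sequences were not given in the sources used here.

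Total counts were 24770972 to 28709049 per library, so that 3 counts, taken as the detection floor, were worth 0.0992 to 0.120 CPM (counts scaled to library size). Slc25a26 itself averaged 31.4 CPM in siNeg and 15.1 CPM in siSlc25a26, a log2 fold change of -1.08 (edgeR quasi-likelihood test, adjusted p = 1.08e-05). With PE it averaged 102 CPM in both siRNA groups, with a log2 fold change of -0.0062 (adjusted p = 0.969 by edgeR), so this check went against the label of the knockdown group under PE, which is written here as the libraries labelled siSlc25a26.PE. Of 7 known PE response markers, 6 rose with PE in siNeg, Nppa and Nppb among them. Every cardiomyocyte, fibroblast, endothelial and smooth muscle marker listed had counts in at least 1 library. The summed level of 10 fibroblast markers was 25160 to 27951 CPM in siNeg, 13433 to 14021 in siNeg.PE, 14655 to 16645 in siSlc25a26 and 10443 to 11559 in the libraries labelled siSlc25a26.PE. The fibroblast sum was carried by Col1a1, Col3a1 and Fn1, and the list was split: with PE in siNeg 5 of 10 markers were called lower, while Dcn (102 and 124 CPM), Pdgfra (68.4 and 89) and Lum (60.7 and 63) were not. The same sum for 10 cardiomyocyte markers was 25298 to 27527, 30367 to 31425, 22044 to 24968 and 29140 to 30986 CPM. Summed over 8 smooth muscle and pericyte markers the level was 3544 to 3840 CPM in siNeg, and between 1824 and 2284 CPM in the other groups. Acta2 and Tagln fell with PE in siNeg, whereas Cnn1 rose with PE, from 40.5 to 122 CPM in siNeg and from 18.1 to 184 CPM in siSlc25a26, and Cspg4 rose from 200 to 432 CPM in siSlc25a26. In such bulk RNA, fewer cells of a type and less RNA per cell cannot be told apart. Interferon response genes moved with the siRNA: all 15 tested were higher in siSlc25a26 than in siNeg, with a median log2 fold change of 5.65, and 15 of 16 were higher under PE (5.30). The part of these genes and of the cell type markers in the members' differences was not tested.

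The factors belong to a few signalling systems that are well known in the heart. HB-EGF and neuregulin-1 bind receptor tyrosine kinases of the ErbB family, and leukaemia inhibitory factor and interleukin-6 act through the shared subunit gp130. Endothelin-1 acts on G protein-coupled receptors, activin A and myostatin on activin receptors with SMAD signalling, and IGF-1 on its own tyrosine kinase receptor. GDF15 and FGF21 are hormones released by many stressed tissues.

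The upstream sequences of 4 members are shown because they held a searched motif and because 2 of these genes, Edn1 and Inhba, were called in most comparisons. The sequences are the 250 bases before the RefSeq start on GRCr8, read 5′ to 3′ on the strand of the gene. Capitals mark a motif match. They lie at chr4:5894576-5894825 on the minus strand for Il6, chr1:105221377-105221626 on the minus strand for Fgf21, chr17:22666688-22666937 on the minus strand for Edn1 and chr17:53804509-53804758 on the minus strand for Inhba.
Il6: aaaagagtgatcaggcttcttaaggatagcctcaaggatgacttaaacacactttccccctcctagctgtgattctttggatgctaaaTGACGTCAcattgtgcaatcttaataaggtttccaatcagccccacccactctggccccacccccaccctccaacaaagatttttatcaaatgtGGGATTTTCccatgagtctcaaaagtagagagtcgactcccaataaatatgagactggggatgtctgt
Fgf21: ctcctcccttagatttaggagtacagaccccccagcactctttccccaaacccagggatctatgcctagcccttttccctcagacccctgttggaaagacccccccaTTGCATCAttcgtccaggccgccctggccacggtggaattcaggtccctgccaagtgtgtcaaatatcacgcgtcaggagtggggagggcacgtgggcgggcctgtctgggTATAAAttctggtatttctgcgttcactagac
Edn1: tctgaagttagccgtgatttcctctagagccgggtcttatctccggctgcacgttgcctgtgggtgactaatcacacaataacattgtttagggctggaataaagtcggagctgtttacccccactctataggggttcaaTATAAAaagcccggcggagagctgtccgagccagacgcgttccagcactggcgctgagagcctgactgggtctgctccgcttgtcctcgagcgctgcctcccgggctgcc
Inhba: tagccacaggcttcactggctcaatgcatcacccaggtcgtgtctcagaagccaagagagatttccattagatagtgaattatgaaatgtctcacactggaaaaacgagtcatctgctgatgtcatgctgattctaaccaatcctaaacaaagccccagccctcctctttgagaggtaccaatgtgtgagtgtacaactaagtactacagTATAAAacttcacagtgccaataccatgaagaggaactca

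Il6 held a cyclic AMP response element (TGACGTCA) that began 162 bases before the start and an NF-kB site (GGGANTTTC) at 68 bases. Fgf21 held a C/EBP-ATF composite (TTGCATCA) at 143 bases and a TATA box (TATAAA) at 32 bases. Edn1 and Inhba each held a TATA box, at 110 and 40 bases. RefSeq entries matched 7 of the 10 members, with 2 start sites for Gdf15, of which the second held a TATA box at 28 bases. Searched on both strands, the same length before 33469 RefSeq starts held the cyclic AMP response element in 1.59%, the NF-kB letters in 0.953%, the C/EBP-ATF letters in 0.693% and the TATA letters in 12.9%. The AP-1 site (TGANTCA) was in 6.34% and the interferon-stimulated response element (GAAANNGAA) in 8.12% of these windows, and neither was in any member's window. No searched letters were in the windows of Hbegf or Igf1. A match is a run of letters and does not show that a factor binds there.

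On the length-scaled FPKM scale, which allows levels of different genes to be compared, Gdf15 was the most abundant member in siNeg, with a mean of 24.9 FPKM. Hbegf followed with 9.71 FPKM, Igf1 with 9.28, Edn1 with 6.28 and Nrg1 with 4.27. Lif had 2.50 FPKM, Inhba 1.40 and Fgf21 1.33. Il6 and Mstn were near 0, at 0.0133 and 0.0267 FPKM. The order was not fixed, as Hbegf reached 23.2 FPKM in the libraries labelled siSlc25a26.PE, where Gdf15 averaged 24.8 FPKM.

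**Figure D1:**
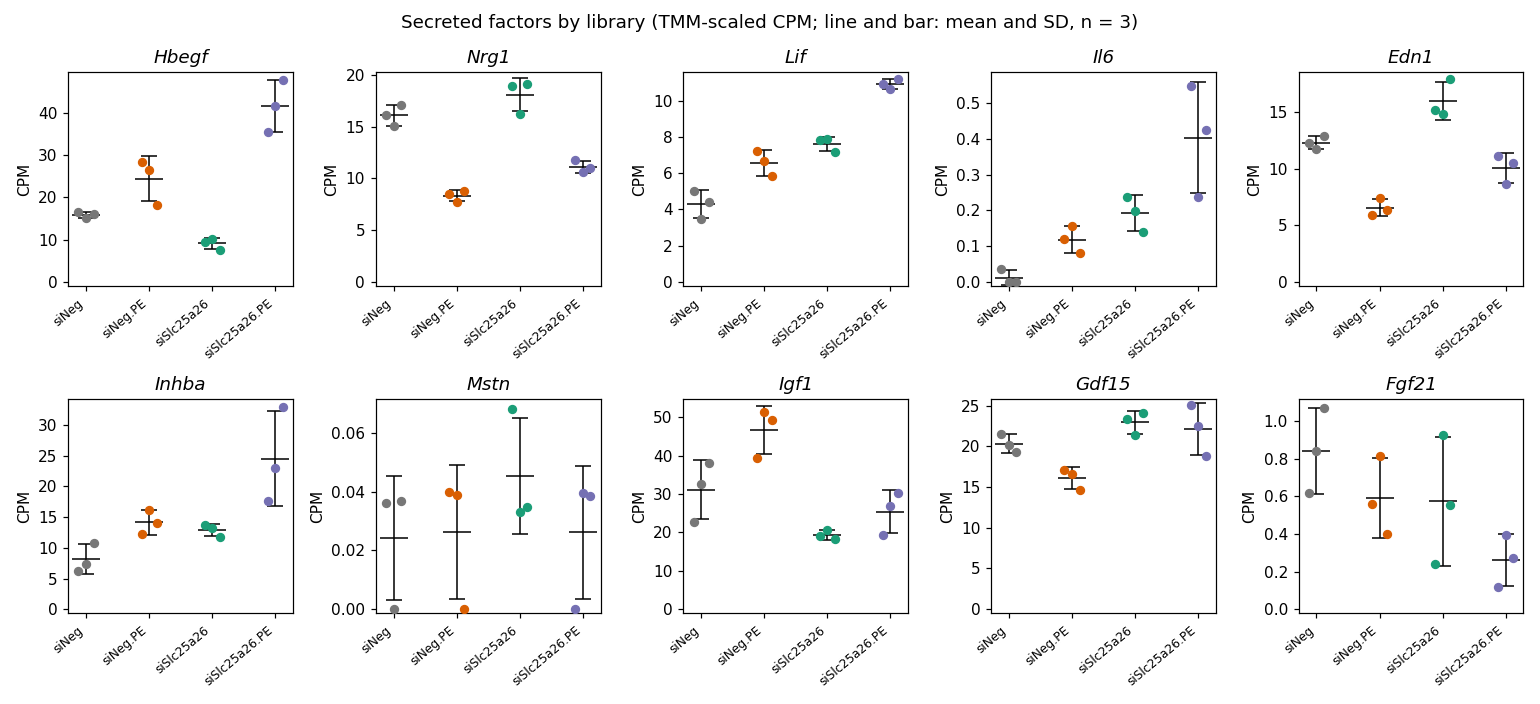
Level of each factor in every library, in CPM on a linear axis from 0, by group on the x axis. Points are the 3 libraries of a group, and the line and bar give the mean and SD. Hbegf was lowest in siSlc25a26 (mean 9.14 CPM) and highest in the libraries labelled siSlc25a26.PE (mean 41.7 CPM), and Mstn stayed below 0.07 CPM in every library.

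Differences were called at a fold change above 1.5 (0.58 on the log2 scale) with an adjusted p-value under 0.05 over all genes tested by edgeR. In each comparison 8 members were tested, and Il6 and Mstn fell below the filter on low counts. PE in siNeg raised 3 members (Lif, Hbegf and Inhba) where 12.4% of all genes tested were called higher, and lowered 2 (Edn1 and Nrg1) where 8.24% were called lower. Without PE, siSlc25a26 against siNeg had 2 members higher (Lif and Inhba; 8.92% of all genes) and 2 lower (Hbegf and Igf1; 7.2%). Under PE, the libraries labelled siSlc25a26.PE against siNeg.PE had 4 higher (Lif, Hbegf, Edn1 and Inhba; 7.71%) and 1 lower (Igf1; 8.1%). PE in siSlc25a26 raised 2 (Hbegf and Inhba; 10.1%) and lowered 2 (Edn1 and Nrg1; 10.4%). The test of the difference between both PE effects called 1 member higher (Hbegf; 2.16%) and 0 lower (3.34%). No member was lower there at an unadjusted p under 0.05 (0 of 8) or by DESeq2 (0). The median log2 fold change of the tested members was 0.11, 0.15, 0.53 and 0.18 in the 4 comparisons, in that order, against medians of 0.00016, 0.015, -0.0028 and -0.0036 over all genes tested. The comparisons share libraries pairwise, so they are not independent of each other.

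**Figure D2:**
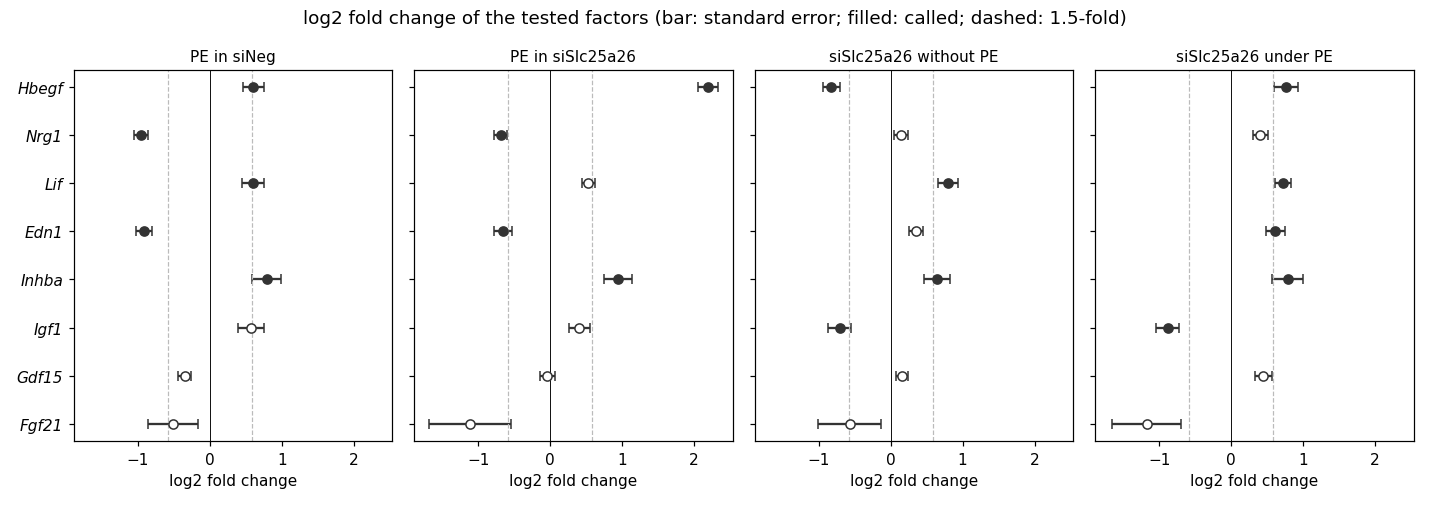
The x axis gives the log2 fold change of the 8 tested factors in 4 comparisons, with standard errors as bars. Filled points were called, and dashed lines mark a 1.5-fold change. Hbegf had its largest change with PE in siSlc25a26 (2.20), and Fgf21 had the widest errors and no call.

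Hbegf encodes heparin-binding EGF-like growth factor, which is made as a membrane protein, shed by ADAM proteases and bound by EGFR and ErbB4. It had 16.6, 15.2 and 16.0 CPM in the siNeg libraries and 28.4, 26.6 and 18.3 CPM in the siNeg.PE libraries. Without PE, siSlc25a26 gave 9.57, 10.3 and 7.61 CPM, and the libraries labelled siSlc25a26.PE gave 35.6, 41.7 and 47.7 CPM. No group overlapped another, and the order ran from siSlc25a26 through siNeg and siNeg.PE to siSlc25a26.PE. PE raised Hbegf in siNeg by a log2 fold change of 0.60 (SE 0.148, edgeR adjusted p = 0.0106). PE raised it 4.59-fold in siSlc25a26, a log2 fold change of 2.20 (SE 0.138). The siRNA comparison turned direction with PE: Hbegf was lower in siSlc25a26 than in siNeg (log2 fold change -0.83, SE 0.115, edgeR adjusted p = 0.00053), and higher in the libraries labelled siSlc25a26.PE than in siNeg.PE (0.76, SE 0.169, edgeR adjusted p = 0.00693). The difference between the PE effects was 1.57 on the log2 scale (SE 0.225, edgeR adjusted p = 0.00121). It stayed between 1.41 and 1.69 when any single library was left out. The smaller calls were less stable. The rise with PE in siNeg was 0.57 without siNeg replicate 2, 0.49 without siNeg.PE replicate 1 and 0.55 without siNeg.PE replicate 2, each below the 1.5-fold threshold. The difference under PE fell to 0.57, also below it, without siNeg.PE replicate 3.

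Nrg1 encodes neuregulin-1, a ligand of ErbB3 and ErbB4 that is best known from endothelial cells of the heart. It moved opposite to Hbegf with PE. Levels in siNeg were 16.2, 15.1 and 17.1 CPM, and those in siNeg.PE were 8.48, 7.74 and 8.82 CPM. In siSlc25a26 they were 18.9, 16.2 and 19.1 CPM, against 11.8, 10.6 and 11 CPM in those labelled siSlc25a26.PE. All PE libraries lay below all libraries without PE. The log2 fold change with PE was -0.96 in siNeg (SE 0.1, edgeR adjusted p = 0.00020) and -0.69 in siSlc25a26 (SE 0.0929, edgeR adjusted p = 0.00029). The difference between these effects was 0.25 and was not called (edgeR adjusted p = 0.251). The summed level of 10 endothelial markers was 30.6 to 32.8 CPM in siNeg and 26.6 to 28.6 CPM in siNeg.PE. In the siSlc25a26 pair it was 31.0 to 31.7 against 31.2 to 33.9 CPM. Kdr, Tek and Egfl7 made up most of the sum, at 12.1, 12.4 and 3.35 CPM in siNeg. Pecam1, Cdh5 and Vwf averaged 0.741, 0.564 and 0.640 CPM there. Cldn5, Emcn and Erg did not pass the filter on low counts in any comparison. Within that list Kdr fell with PE in both siRNA groups, from 12.1 to 5.77 CPM and from 12.8 to 6.57 CPM, and Tek rose in siSlc25a26 from 11.9 to 19.5 CPM (12.4 and 15.7 CPM in the siNeg pair, not called). The part of these markers in the Nrg1 values was not tested.

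Of 20 other genes of ErbB signalling, 15 were tested with PE in siNeg, where 3 rose, 0 fell and the median log2 fold change was 0.14. The ligand Areg rose from 0.21 to 1.17 CPM (log2 fold change 2.44, SE 0.350, edgeR adjusted p = 0.000918) and the ligand Tgfa from 2.96 to 5.65 CPM (0.92). Both ligands also rose with PE in siSlc25a26, by 2.35 and 0.98. Areg was also higher with siSlc25a26 than with siNeg, without PE (1.66) and under PE (1.57). The main HB-EGF receptor Egfr was called in none of the comparisons, nor was the co-receptor Erbb2. Under PE the neuregulin receptors parted: Erbb3, at 0.529 CPM in siNeg.PE, was 1.76 CPM in the libraries labelled siSlc25a26.PE (1.72, SE 0.341, edgeR adjusted p = 0.00389), and Erbb4 was lower there (-0.70, edgeR adjusted p = 0.0132). The sheddase Adam10 was lower with siSlc25a26 without PE (-0.84) and under PE (-1.51). In siSlc25a26 without PE the list had 3 genes higher and 3 lower of 16 tested (median -0.13), under PE 5 higher and 3 lower of 15 (0.08), and with PE in siSlc25a26 5 higher and 1 lower of 15 (0.35).

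Lif encodes leukaemia inhibitory factor, which signals through its receptor and gp130 to STAT3. The siNeg libraries had 5, 3.47 and 4.43 CPM and the siNeg.PE libraries 7.24, 6.69 and 5.83 CPM. The siSlc25a26 libraries had 7.83, 7.87 and 7.16 CPM, and those labelled siSlc25a26.PE had 10.9, 10.6 and 11.2 CPM. Only siNeg.PE and siSlc25a26 overlapped. Lif was higher with siSlc25a26 than with siNeg without PE (log2 fold change 0.80, SE 0.143, edgeR adjusted p = 0.00204) and under PE (0.72, SE 0.115, edgeR adjusted p = 0.00130). PE raised it in siNeg by 0.60 (SE 0.159, edgeR adjusted p = 0.0147), which was 0.47 without siNeg replicate 2 and 0.54 without siNeg.PE replicate 1, both below 1.5-fold. In siSlc25a26 the PE effect was 0.53 (SE 0.0917, edgeR adjusted p = 0.00124) and did not reach 1.5-fold. On the FPKM scale the PE effect in siNeg was smaller, 0.24 on log2(FPKM + 1), and did not pass limma's test (adjusted p = 0.0580).

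Il6 encodes interleukin-6, the inflammatory cytokine that shares gp130 with LIF. It was at the edge of detection. The siNeg libraries had 1, 0 and 0 counts, the siNeg.PE libraries 3, 4 and 2, the siSlc25a26 libraries 7, 6 and 4, and those labelled siSlc25a26.PE 14, 6 and 11. Without PE, every siSlc25a26 library was above every siNeg library, and the groups overlapped between siSlc25a26 with and without PE. Pooled over a group and scaled to library size, 17 counts in siSlc25a26 against 1 in siNeg gave a ratio of 15.6 (exact 95% interval 2.44 to 651). Under PE, 31 counts against 9 gave a ratio of 3.41 (1.58 to 8.14). PE gave 9.59 in siNeg (1.33 to 421) and 2.10 in siSlc25a26 (1.13 to 4.05). These intervals cover counting error only. When no filter on low counts was used, edgeR gave adjusted p = 0.0191 without PE and 0.0433 under PE for the siRNA comparisons, and 0.0699 and 0.122 for PE in siNeg and in siSlc25a26. The interferon response genes given above moved with the same libraries, and their part in the Il6 and Lif values was not tested.

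Of 19 other genes of the gp130 system, 17 were tested in each of the 4 comparisons. PE in siNeg gave 2 higher and 1 lower (median log2 fold change 0.07), and PE in siSlc25a26 3 higher and 5 lower (0.03). With siSlc25a26 4 were higher and 1 lower without PE (0.33), and 1 was higher and 2 lower under PE (0.29). The oncostatin M receptor Osmr was higher without PE (0.92) and under PE (1.14, 18 to 39.8 CPM). The LIF receptor Lifr turned direction: it was higher with siSlc25a26 without PE (0.67, edgeR adjusted p = 0.00131) and lower under PE (-0.76, edgeR adjusted p = 0.00552). PE lowered Lifr from 39.7 to 13 CPM in siSlc25a26 (-1.60), and the difference between the PE effects was -1.45 (SE 0.223, edgeR adjusted p = 0.0019). The shared subunit gp130, Il6st, was called in none of the comparisons.

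Edn1 encodes the precursor of endothelin-1, a vasoconstrictor peptide that also drives cardiomyocyte growth. It fell with PE. It had 12.3, 11.7 and 12.9 CPM in the siNeg libraries and 5.93, 7.39 and 6.35 CPM in the siNeg.PE libraries. Without PE, siSlc25a26 gave 15.2, 14.9 and 18 CPM, and the libraries labelled siSlc25a26.PE gave 11.1, 8.62 and 10.5 CPM. No group overlapped another. The log2 fold change with PE was -0.92 in siNeg (SE 0.112, edgeR adjusted p = 0.00042) and -0.66 in siSlc25a26 (SE 0.120, edgeR adjusted p = 0.00169), and their difference of 0.24 was not called (edgeR adjusted p = 0.385). The second value was -0.55 without siSlc25a26.PE replicate 2 and -0.57 without siSlc25a26 replicate 3, both short of 1.5-fold. Edn1 was higher in the libraries labelled siSlc25a26.PE than in siNeg.PE (0.61, SE 0.134, edgeR adjusted p = 0.00631). That value was 0.55 without siNeg.PE replicate 1, 0.57 without siNeg.PE replicate 3 and 0.54 without siSlc25a26.PE replicate 1, which ended the call. Without PE the siRNA difference was 0.35 and did not reach 1.5-fold (edgeR adjusted p = 0.0175).

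Of 7 other endothelin genes in the tables, 5 or 6 were tested. PE in siNeg gave 0 higher and 1 lower, the endothelin-degrading protease Mme, and PE in siSlc25a26 gave 0 higher and 1 lower. Ednra, the main endothelin receptor of cardiomyocytes, was higher with siSlc25a26 without PE (121 to 200 CPM, log2 fold change 0.69, SE 0.0571, edgeR adjusted p = 2.18e-05) and was the gene that PE lowered in siSlc25a26 (-0.68). Ednrb was lower with siSlc25a26 without PE (3.8 to 0.621 CPM, -2.63, edgeR adjusted p = 1.99e-05) and under PE (4.82 to 0.598 CPM, -3.01, edgeR adjusted p = 2.86e-05). The converting enzyme Ece2 was also lower in both (-1.09 and -1.05). These siRNA comparisons thus had 1 higher and 2 lower without PE, and 0 higher and 2 lower under PE.

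Inhba encodes the βA subunit, which pairs with itself to form activin A or with the α subunit to form inhibin A. It was higher in all 4 comparisons. Levels in siNeg were 6.16, 7.44 and 10.8 CPM, and those in siNeg.PE were 12.2, 16.3 and 14.1 CPM. In siSlc25a26 they were 13.7, 13.2 and 11.8 CPM, against 17.7, 23.0 and 32.9 CPM in those labelled siSlc25a26.PE. The siNeg libraries were the lowest and those labelled siSlc25a26.PE the highest, with the other two groups overlapping between them. The log2 fold change with PE was 0.79 in siNeg (SE 0.203, edgeR adjusted p = 0.0129) and 0.94 in siSlc25a26 (SE 0.197, edgeR adjusted p = 0.00364). With siSlc25a26 against siNeg it was 0.64 without PE (SE 0.181, edgeR adjusted p = 0.0186) and 0.78 under PE (SE 0.210, edgeR adjusted p = 0.0161). The difference between the PE effects was 0.13 (edgeR adjusted p = 0.837). Several calls rested on single libraries. Without siNeg replicate 2, the adjusted p for PE in siNeg was 0.0547. The siRNA difference without PE lost its call without siNeg replicate 1 (0.47) or siNeg replicate 2 (0.57), and without siSlc25a26 replicate 1 (adjusted p = 0.0617 by edgeR) or replicate 2 (0.0555). The difference under PE lost it without siNeg.PE replicate 3 (adjusted p = 0.0614 by edgeR) or siSlc25a26.PE replicate 3 (0.52 on the log2 scale).

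Mstn encodes myostatin, the inhibitor of muscle growth that is also made in small amounts by the heart. It had 0 to 2 counts in every library, at or below the detection floor, so no fold is given and no difference was detectable at this depth.

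All 25 other activin and myostatin genes were in the tables. The α subunit Inha rose with PE from 16.7 to 148 CPM in siNeg (log2 fold change 3.14, SE 0.102, edgeR adjusted p = 2.22e-06) and from 12 to 114 CPM in siSlc25a26 (3.25). The βB subunit Inhbb fell from 11 to 3.46 CPM in siNeg (-1.68, edgeR adjusted p = 4.78e-05) and by 1.02 on the log2 scale in siSlc25a26. With PE in siNeg 3 of 24 tested rose and 3 fell (median -0.18), and in siSlc25a26 also 3 rose and 3 fell of 24 (-0.018). The activin antagonists Fst and Fstl3 were higher in the libraries labelled siSlc25a26.PE than in siNeg.PE, by 0.95 (1.78 to 3.45 CPM, edgeR adjusted p = 0.00694) and 0.73 (edgeR adjusted p = 0.00121). Smad7, an inhibitory SMAD, was higher there as well (21.3 to 35.4 CPM, 0.73, edgeR adjusted p = 0.000205). Fstl3 rose with PE in siSlc25a26 from 4.51 to 13.2 CPM (1.56), and the difference between the PE effects was 1.16 (SE 0.196, edgeR adjusted p = 0.00299). In this list siSlc25a26 gave 0 higher and 1 lower of 24 tested without PE (0.053), and 4 higher and 0 lower of 23 under PE (-0.0074). The type II receptor Acvr2a rose with PE in siNeg (0.63, edgeR adjusted p = 0.0186), and Acvr2b fell with PE in siSlc25a26 (-0.83, edgeR adjusted p = 0.000155).

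**Figure D3:**
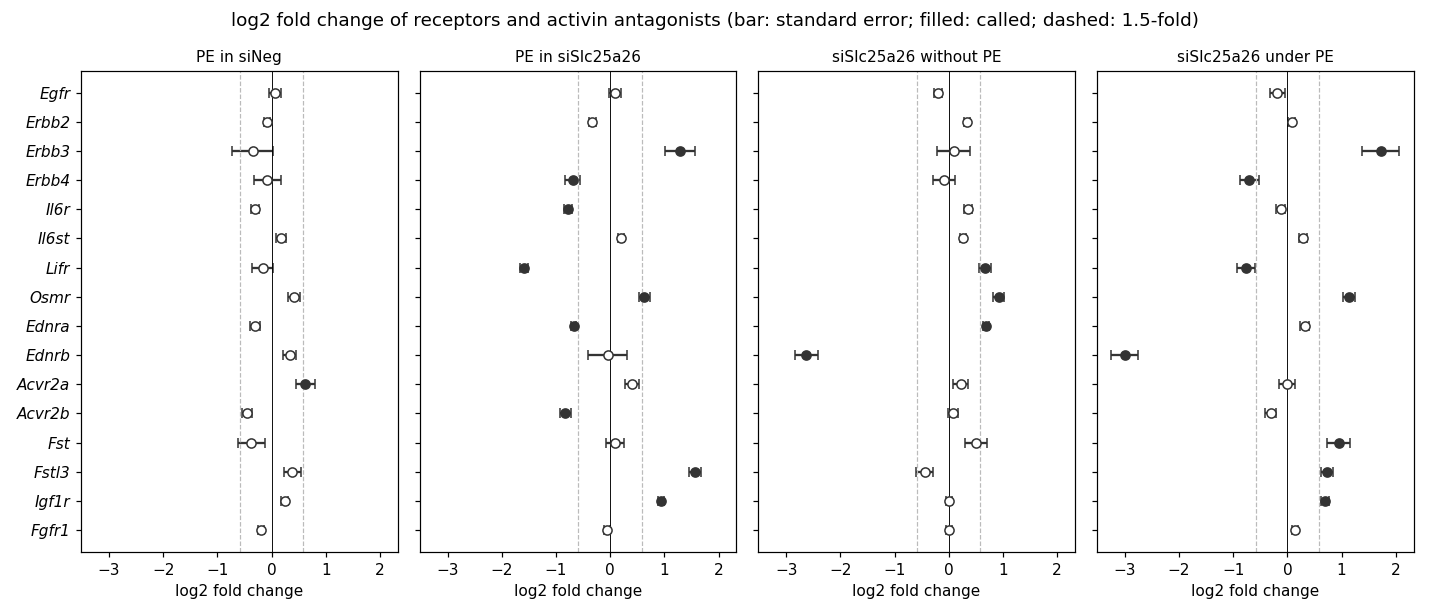
The x axis gives the log2 fold change of 14 receptors or receptor subunits and of the activin antagonists Fst and Fstl3 in the 4 comparisons, with standard errors as bars. Filled points were called, and dashed lines mark a 1.5-fold change. Ednrb was lower with siSlc25a26 without PE (-2.63) and under PE (-3.01), and Lifr changed sign between them (0.67 and -0.76).

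Igf1 encodes insulin-like growth factor 1, a growth and survival factor made in the heart mostly by cells other than cardiomyocytes. It was the member called lower with siSlc25a26 both without PE and under PE. The siNeg libraries had 22.7, 32.8 and 38.1 CPM and the siNeg.PE libraries 39.5, 51.3 and 49.3 CPM. The siSlc25a26 libraries had 19.0, 20.8 and 18.4 CPM, and those labelled siSlc25a26.PE had 19.2, 26.9 and 30.2 CPM. The siNeg.PE libraries were above all others, and the siSlc25a26 libraries overlapped those labelled siSlc25a26.PE. The siRNA difference was -0.71 without PE (SE 0.162, edgeR adjusted p = 0.00706) and -0.88 under PE (SE 0.160, edgeR adjusted p = 0.00249). Without siNeg replicate 3 the first was -0.57, short of 1.5-fold. With PE the log2 fold change was 0.57 in siNeg (SE 0.178, edgeR adjusted p = 0.0279), which fell just short of 1.5-fold and became a call, at 0.74 and 0.69, without siNeg replicate 3 or siNeg.PE replicate 1. In siSlc25a26 it was 0.40 (edgeR adjusted p = 0.0463), again under 1.5-fold. The fibroblast marker sums given above were lower with siSlc25a26, without PE and under PE, where 8 and 5 of 10 markers were called lower, and with PE, where 5 of 10 were called lower in siNeg and 1 of 10 in siSlc25a26. The sum of 9 macrophage and leukocyte markers was 108 to 131 CPM in siNeg, 59.8 to 69.0 in siNeg.PE, 59.2 to 68.6 in siSlc25a26 and 41.1 to 48.5 CPM in the libraries labelled siSlc25a26.PE. Lyz2 made up most of that sum and was the only marker of the list called lower with siSlc25a26 under PE (46.6 to 26.9 CPM), while Csf1r was 3.62 and 3.73 CPM. The part of both lists in the Igf1 values was not tested.

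The 2 deposited scales differed, and Igf1 and Lif are described here. Dividing the count by the FPKM value and the library total gives the transcript length that the authors' scaling implied. For Igf1 it was 3.18 to 3.77 kb in siNeg, 3.90 to 4.26 kb in siNeg.PE, 3.11 to 3.13 kb in siSlc25a26 and 3.40 to 3.73 kb in the libraries labelled siSlc25a26.PE. The implied length was therefore longer with PE in both siRNA groups, with no overlap between PE and its control. Lif also varied: its implied length was 1.64 to 1.90 kb in siNeg and 2.04 to 2.11 kb in siNeg.PE, and 1.47 to 2.10 kb and 1.68 to 2.07 kb in the siSlc25a26 groups without and with PE, which overlapped. For Nrg1 it ran from 3.61 to 4.44 kb, and for Fgf21, which had few reads, from 0.553 to 1.20 kb. For Gdf15 it stayed at 0.831 to 0.840 kb in all 12 libraries. The order of the group means changed between the scales for Gdf15, Fgf21 and Mstn, and not for Igf1 or Lif. In FPKM, Igf1 averaged 6.52 in siSlc25a26 and 6.57 in the libraries labelled siSlc25a26.PE, and the PE effect there was -0.00091 on log2(FPKM + 1) (adjusted p = 0.996 by limma). The median over all genes moved to -0.13 in that fit, so the Igf1 value lay above that median. In siNeg the PE effect was 0.26 on the same scale and did not pass limma's test (adjusted p = 0.133).

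**Figure D4:**
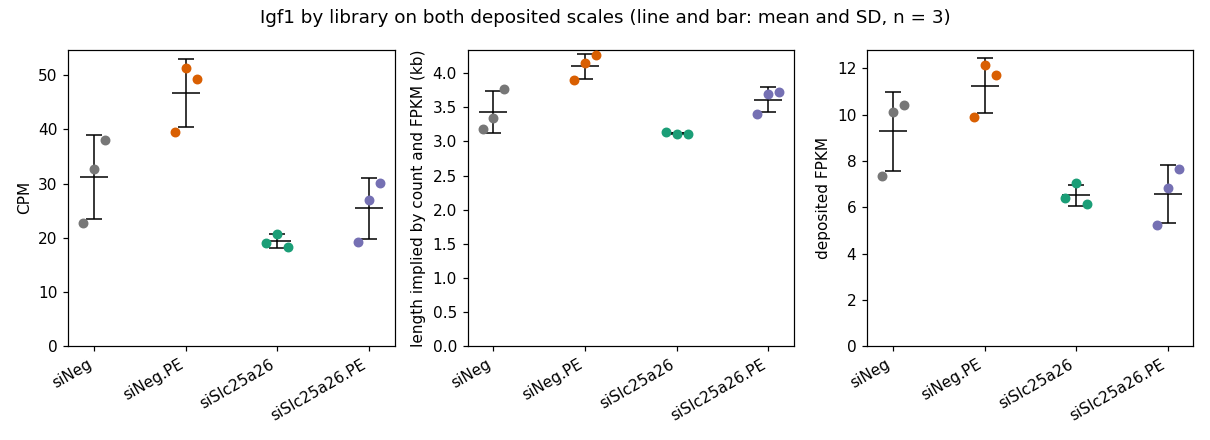
Igf1 in each library as CPM, as the length in kb implied by count and FPKM, and as deposited FPKM, all from 0, by group on the x axis. Points are libraries, and the line and bar give mean and SD. The implied length was 3.11 to 3.77 kb without PE and 3.40 to 4.26 kb with PE.

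Of 18 other IGF genes in the tables, 15 were tested. With PE in siNeg 2 were higher and 7 lower (median log2 fold change -0.39), and in siSlc25a26 3 higher and 6 lower (-0.39). With siSlc25a26 0 were higher and 5 lower without PE (-0.39), and 1 was higher and 6 lower under PE (-0.39). The binding protein Igfbp5, which is also made by fibroblasts, was lower in all 4 comparisons: with PE in siNeg (58 to 24 CPM, -1.28), with siSlc25a26 without PE (-1.82) and under PE (24 to 5.12 CPM, -2.24), and with PE in siSlc25a26 (-1.70). Igfbp3, the main carrier of circulating IGF, fell with PE in siNeg from 78 to 27 CPM (-1.54, edgeR adjusted p = 1.32e-05). Igfbp3 was also called lower with PE in siSlc25a26, from 58.5 to 25.7 CPM. The receptor Igf1r rose with PE in siSlc25a26 from 57.2 to 109 CPM (0.94, edgeR adjusted p = 3.2e-06) and not in siNeg (0.24), and the difference between the PE effects was 0.67 (SE 0.0849, edgeR adjusted p = 0.000641). Stc1, a secreted inhibitor of the protease that frees IGF from its binding proteins, rose with PE in siNeg from 37.9 to 203 CPM (2.41) and was lower in the libraries labelled siSlc25a26.PE at 77.9 CPM (-1.39).

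Gdf15 encodes growth differentiation factor 15, a stress hormone that reduces appetite. It varied little. It had 21.5, 20.1 and 19.3 CPM in the siNeg libraries and 17.1, 16.6 and 14.6 CPM in the siNeg.PE libraries. Without PE, siSlc25a26 gave 23.4, 21.4 and 24.1 CPM, and the libraries labelled siSlc25a26.PE gave 25.0, 22.5 and 18.8 CPM. The siNeg.PE libraries lay below all others, and the lowest siSlc25a26 library (21.4) was just under the highest siNeg library (21.5). Its log2 fold change was -0.35 with PE in siNeg (SE 0.0894, edgeR adjusted p = 0.0129) and 0.45 with siSlc25a26 under PE (edgeR adjusted p = 0.0147), both under 1.5-fold. It was 0.15 with siSlc25a26 without PE (edgeR adjusted p = 0.165) and -0.04 with PE in siSlc25a26 (edgeR adjusted p = 0.741), so Gdf15 was called in none of the comparisons.

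Fgf21 encodes fibroblast growth factor 21, a hormone induced by fasting and by cell stress. It had few reads. The siNeg libraries had 17, 22 and 29 counts, the siNeg.PE libraries 14, 21 and 10, the siSlc25a26 libraries 7, 28 and 16, and those labelled siSlc25a26.PE 3, 10 and 7. Groups next to each other in mean CPM overlapped, and no comparison was called in the main fits. Under PE, the libraries labelled siSlc25a26.PE (0.117 to 0.397 CPM) lay just below those of siNeg.PE (0.399 to 0.816 CPM). The fitted log2 fold changes were -0.52 with PE in siNeg (edgeR adjusted p = 0.241), -0.57 with siSlc25a26 without PE (0.320), -1.18 under PE (0.0793) and -1.12 with PE in siSlc25a26 (0.133). Pooled over a group, 20 counts in the libraries labelled siSlc25a26.PE against 45 in siNeg.PE gave a ratio of 0.440 (exact 95% interval 0.246 to 0.760), an interval for counting error that leaves out the spread between libraries.

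A list of 17 stress genes, made up of Atf4, whose protein acts on Gdf15 and Fgf21 in many cells, and other targets of that factor, was tested in full. With PE in siNeg 1 was higher and 5 lower (median log2 fold change -0.37), and in siSlc25a26 2 were higher and 4 lower (-0.35). Ddit3 was among the genes lower in both, from 45.0 to 28.4 CPM in siNeg and from 76.2 to 48.3 CPM in siSlc25a26. Atf3 and Ddit3, both transcription factors of the stress response, were the 2 genes higher with siSlc25a26 without PE, by 1.33 (7.43 to 19 CPM, edgeR adjusted p = 3.76e-06) and 0.74 (edgeR adjusted p = 1.18e-05), where 0 were lower (-0.13). They were also the 2 that were higher under PE, by 1.67 and 0.76, with 1 gene lower (-0.040). A list of 10 genes held FGF receptors with their co-receptors Klb and Kl and adaptor Frs2, and Ret with its partners Gfra1 and Gfra2, which are receptors of other ligands than GDF15. The GDF15 receptor Gfral was also looked for, but no gene of the deposited data had that symbol. Of the 10, 8 were tested. With PE in siNeg 0 rose and 4 fell (-0.70), among them Ret, the signalling partner of the GDF15 receptor (1.16 to 0.317 CPM, -1.87, edgeR adjusted p = 0.00599), and in siSlc25a26 0 rose and 2 fell (-0.13). With siSlc25a26 0 were higher and 2 lower without PE (-0.36), and 1 was higher and 1 lower under PE (0.096). Klb, the co-receptor that FGF21 needs, did not pass the filter in any comparison, while the receptor Fgfr1 was called in none. Other FGF receptors were called: Fgfr3 and Fgfr4 were lower with PE in siNeg, and Fgfr3 was lower with siSlc25a26 without PE. Fgfr2 was higher in the libraries labelled siSlc25a26.PE (20.1 CPM) than in siNeg.PE (7.63 CPM).

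The genes whose pattern over the 12 libraries was most like that of a member were found among 14097 genes by the root mean square difference of centred log2 CPM, where 0 means the same pattern. For Nrg1 these were Bmp4 (0.0972) and Bmp6 (0.108), and for Edn1 they were Ell (0.159) and Nrg1 itself (0.161). Lif was nearest to Fdft1 (0.126) and Tmem41b (0.135), Igf1 to Prp2l1 (0.133) and Map7d2 (0.146), and Inhba to Skil and Zfp51 (both 0.146). Hbegf was nearest to Tiam2 (0.200) and Aif1l (0.212), while its own pattern had a root mean square of 0.820. Gdf15 was nearest to Tnfaip2 (0.0737) and Nr2c2ap (0.0743), beside 0.226 for its own pattern. Fgf21 had no close gene, with Fcrl2 at 0.381 and Chst13 at 0.397 beside 0.739 of its own. These values describe likeness over libraries that share groups and carry no test.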

How the data were processed

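The deposited tables hold the authors' estimated counts per gene (20.8% to 21.9% of the values in a library are not whole) and FPKM values, which divide fragments by transcript length and library total. Per the labels, the processing used HISAT and Bowtie2 with build Rnor 6.0. The counting program, annotation and strandedness were not given in the sources used here. The series' text calls the 3 replicates of a group independent biological replicates. The study's paper describes another siRNA and other times, so the groups were taken from the labels.

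Counts were rounded to whole numbers and tested with edgeR 4.0.16 in R 4.3.3 (TMM scaling, filterByExpr, quasi-likelihood F-test, Benjamini-Hochberg adjustment over all genes tested, called above 1.5-fold at an adjusted p under 0.05). Each of the 4 comparisons used its own 6 libraries, and the difference between the PE effects used all 12. CPM values use TMM factors over all 12 libraries. Fold changes come from each fit and can differ slightly from ratios of CPM means. Standard errors were taken from the F statistic. Pooled counts have exact 95% intervals for counting error only.

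Alternatives were DESeq2 1.42.0, limma 3.58.1 with voom or on log2(FPKM + 1) and log2(FPKM + 0.1), DESeq2 size factors, other filters, 1 fit of all libraries, a replicate block, no fold threshold and leaving out each library. The code was tested on simulated counts. Members, partner lists and marker lists were chosen with earlier results of these data known. All 10 members are named; of each partner list and comparison, at most 4 called genes with the largest change among those whose higher group has 10 counts or more in each library, plus the direct receptors and the activin antagonists. RefSeq (GRCr8) was used for promoters only, as its build differs from the counting build. No sequencing batch is given in the labels. 1 partner gene that the rule would name is not reported here.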

Additional observations from a re-analysis of the deposited data

Results flagged for a closer look

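The response of Hbegf to PE differed between the siRNA groups in the test of the difference itself. The log2 fold change with PE was 0.60 in siNeg and 2.20 in siSlc25a26, a difference of 1.57 (SE 0.225, edgeR adjusted p = 0.00121). Hbegf was higher with PE in all 3 libraries of each PE group than in any library of its control group. Over the 21 alternatives the difference was 1.34 to 1.69 and the adjusted p at most 0.00487. Slc25a26 itself was at 102 CPM in the siNeg.PE libraries and in those labelled siSlc25a26.PE, so the check of the siRNA on its target went against the label under PE.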

How the results depend on the processing

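Of 388 values of members under alternatives other than leaving out a library, 361 kept their direction and side of the threshold, 14 lost a call, 10 gained one and 3 reversed; leaving out a library kept 262 of 288, ended 19 calls, added 3 and reversed 4. The reversals were uncalled values: Igf1 with PE in siSlc25a26 (-0.00091 on log2(FPKM + 1), -0.0030 on log2(FPKM + 0.1)), and Inhba (difference between the PE effects) at -0.0092 on log2(FPKM + 0.1). Leaving out a library gave Gdf15 with PE in siSlc25a26 from -0.14 to 0.057, and differences between the PE effects of -0.22 to 0.037 for Lif and -0.15 to 0.31 for Inhba. The cause was not tested. Members called higher with PE in siNeg (3) were 0 on log2(FPKM + 1), 1 on log2(FPKM + 0.1) and 0 to 4 leaving out a library (0 without siNeg replicate 2). Higher with siSlc25a26 without PE (2), they were 1 on log2(FPKM + 1) and 1 to 2 leaving out a library; lower (2), 1 on both FPKM scales and 1 to 2. Under PE (4 higher, 1 lower), 2 were higher on both FPKM scales, 1 to 5 leaving out a library (1 without siNeg.PE replicate 3), and 2 lower on log2(FPKM + 0.1). With PE in siSlc25a26 (2 higher, 2 lower), 1 was higher on log2(FPKM + 1), 4 with no fold threshold, and 1 to 3 lower leaving out a library.

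Over all genes, log2(FPKM + 1) gave 857 higher and 733 lower for PE in siNeg (1708 and 1130), 452 lower for siSlc25a26 without PE (996), 623 higher under PE (1054), 564 higher for PE in siSlc25a26 (1389) and 164 higher for the difference (305). On log2(FPKM + 0.1), PE in siSlc25a26 gave 824 higher and 2214 lower (1389 and 1436), and the difference 768 lower (471). With no fold threshold the counts were 3456 and 3329, 3223 and 2998, 2744 and 2744, 3634 and 3585, and 773 and 808. Leaving out a library, genes lower in the difference ran from 301 (without siNeg.PE replicate 3) to 646. The share of calls that were higher moved from 49.2% to 27.4% and 27.1% on the 2 FPKM scales for PE in siSlc25a26, and from 39.3% to 23.4% and 22.1% for the difference (medians of all genes -0.13 and -0.17, and -0.11 and -0.14, against -0.0036 and -0.045). Highest over lowest group mean was 1.52 for Gdf15 and 3.94 for Fgf21 in FPKM, against 1.43 and 3.22 in CPM.

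Deviations of same-numbered libraries from their group means had correlations of 0.0094 to 0.22 for PE in siNeg and -0.073 to -0.0054 for PE in siSlc25a26. For the siRNA they were -0.091 to 0.056 without PE and 0.025 to 0.21 under PE. The values differed between comparisons and do not settle whether the numbers pair the libraries. The replicate block added Igf1 with PE in siNeg (0.59, edgeR adjusted p = 9.51e-05) as a call and changed no other member's call; it gave 1803 higher and 1166 lower genes for PE in siNeg. Every library correlated best with its own number for PE in siNeg alone. At this depth Il6 and Mstn could not be tested after filtering. Fgf21 was not called in the main fits. For Fgf21, 1 of 15 alternatives added a call with siSlc25a26 under PE, and 1 of 15 added a call with PE in siSlc25a26.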
